A study of Mus musculus with 6 samples.

Results

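Endothelial and angiogenic genes were compared between brown and white adipose tissue of untreated male C57BL/6 mice kept at ambient temperature, 10 to 12 weeks of age. The brown tissue was interscapular and the white tissue epididymal, and 3 samples of each were hybridised to Affymetrix mouse 430_2 arrays, 1 sample per array. Both tissues came from 3 mice, with no label tying a brown to a white sample of one animal, and the type of fat cannot be told apart from its site in the body. The genes were chosen by name, as a list of 36 genes that mark blood or lymphatic vessels or carry signals to them. All 36 were on the array, in 70 of its 45037 probe sets, among 18193 named genes in all. The list holds 24 blood endothelial genes, 4 lymphatic genes and 8 angiogenic ligands and co-receptors.

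Blood capillaries are lined by endothelial cells joined through VE-cadherin, which carry receptors for vascular endothelial growth factors (VEGF) and angiopoietins. Tissue cells such as adipocytes release VEGF-A, which acts on the receptors Kdr and Flt1 with neuropilins as co-receptors, while VEGF-C acts mainly on Flt4 of lymphatic endothelium. Brown fat is known for its dense capillary bed, which brings oxygen and fuel and carries heat away. These arrays measure whole tissue, so fewer cells of a type and less RNA per cell cannot be told apart.

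The median deposited signal per array ran from 37.6 to 39.4 in brown and from 52.1 to 52.5 in white, and probe sets called present (signal above background by the deposited detection call) made up 35.6% to 37.5% and 45.2% to 45.8% of each array. The arrays were therefore quantile-normalised, and all signals below are normalised, in linear units, while all differences are log2 brown minus white. The ratio of 3' to 5' actin signal, which rises as RNA degrades, ran from 1.36 to 2.24 in brown, highest on brown replicate 2, and from 1.19 to 1.73 in white. Ucp1, the uncoupling protein of brown fat, was called present on the 3 brown arrays alone, with signals of 13251, 12788 and 12788 against 62.5, 4.58 and 11.2 in white. A gene was tested where 3 or more of the 6 arrays gave a present call, and a gene is called higher in a tissue where limma's adjusted p over all tested genes was below 0.05.

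Most blood endothelial genes had the higher signal in white fat. Of 23 tested, 15 were higher in white, 2 in brown and 6 were not called, while over all 10264 genes tested 61.0% were called, 32.7% towards white and 28.2% towards brown. All 3 tested lymphatic genes were higher in white. Of these, Flt4 was called present on white arrays alone and Lyve1 on 3 white arrays and 1 brown array. Both therefore met the detection rule through white, as did Pecam1, Plvap and Vegfc, which favours a call towards white. The ligands and co-receptors went both ways, with 2 of 6 higher in brown, 2 higher in white and 2 not called. The median difference was -0.49 for blood endothelial genes, -1.21 for lymphatic genes and 0.11 for ligands and co-receptors, against -0.04 over all genes tested. Brown and white signals did not overlap across the arrays for 26 of the 32 tested members and for 67.3% of all genes tested. Within a tissue the members varied little between arrays, with a median SD of their log2 signals of 0.12 in brown and 0.09 in white, against 0.15 and 0.13 over all genes tested.

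**Figure D1:**
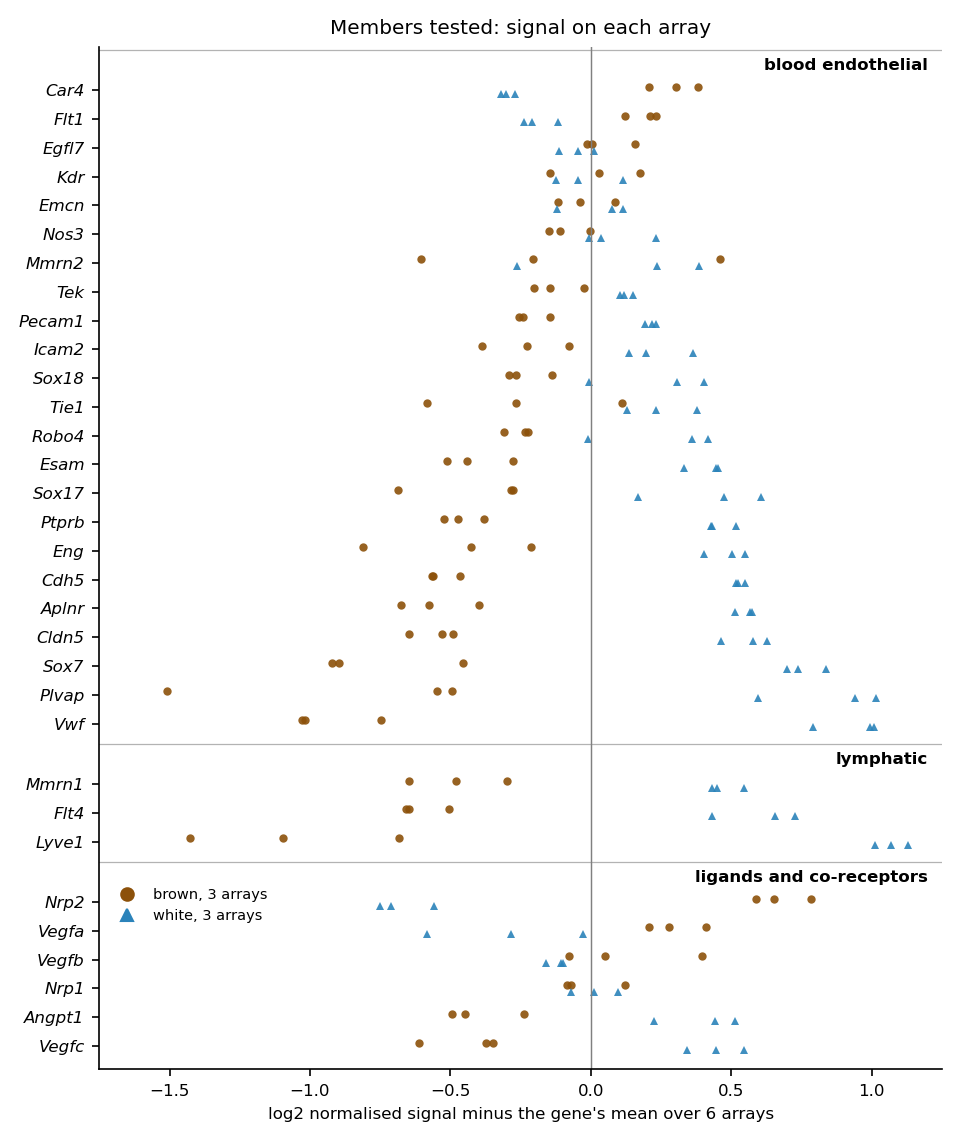
Each row is 1 tested gene, and each point is its log2 normalised signal on 1 array minus the mean of that gene over all 6 arrays (brown circles, white triangles, 3 arrays each), sorted within each group by the difference between tissues. White arrays lie to the right for most blood endothelial and all 3 lymphatic genes, and brown arrays lie to the right for Nrp2, Vegfa, Car4 and Flt1.

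The junction genes of blood endothelium (Cdh5, Cldn5, Esam and Ptprb) were all called higher in white. Cdh5, which encodes VE-cadherin, gave 368, 344 and 343 on the brown arrays and 743, 727 and 731 on the white arrays, a difference of -1.06 (SE 0.08, limma adjusted p = 1.67e-06). Every white array lay above every brown array, and the spread within each tissue was small beside the gap. Cldn5, the claudin of endothelial tight junctions, gave 241, 222 and 248 in brown against 519, 479.7 and 537 in white (-1.11). Esam, an adhesion molecule of the same junctions, had 599 ± 51.1 against 1055 ± 50.3 (SD, n = 3 each; -0.82), and Ptprb, a phosphatase that acts on VE-cadherin and Tek, had 589.6 ± 30.0 against 1114 ± 39.9 (-0.92). A second probe set of Cdh5 had overlapping tissues (-0.05, adjusted p = 0.879 over probe sets), while a second tested probe set of Ptprb was higher in white (-1.15).

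Pecam1, the adhesion molecule often used to stain all endothelium, had a smaller measured difference, which is only a lower bound. It gave 210.3, 208 and 225 in brown, where all 3 arrays were called absent, and 289, 292 and 284 in white, at least 1.35-fold higher (-0.43, limma adjusted p = 0.00433). "At least" is written where no array of the dimmer tissue had a present or marginal call, so that its level there is only a bound. Icam2, another surface adhesion molecule, had 151 ± 16.3 against 208 ± 17.2 (-0.46, adjusted p = 0.0127), a call lost without white replicate 2 (adjusted p = 0.0566). Robo4, a guidance receptor of endothelium, was higher in white by a difference of -0.51 and Eng, the TGF-beta co-receptor endoglin, by -0.97.

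Vwf and Plvap had the largest differences among blood endothelial genes. Vwf, von Willebrand factor, which is strongest in veins and larger vessels, gave 78.8, 65.3 and 64.9 in brown against 264, 229 and 266 in white (-1.86, SE 0.15, limma adjusted p = 2.34e-06). Plvap, which builds the diaphragms of fenestrae and caveolae, gave 114, 58.3 and 118 in brown, with 1 of 3 arrays called present, against 336, 319 and 251 in white (-1.70). The white arrays lay above the brown arrays for both genes. Aplnr, the apelin receptor, had 554 ± 55.2 against 1184 ± 27.7 (-1.10), although its dimmer probe set was not called (-0.30). Car4, a carbonic anhydrase on the surface of capillary endothelium, ran the other way, with 738, 655 and 700.4 in brown against 454, 460.4 and 470.1 in white (0.59, adjusted p = 0.000126). Its second probe set was higher in brown as well, at 513 ± 121 against 257 ± 61.0.

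The SoxF transcription factors, which direct endothelial and arterial identity, were all higher in white. Sox7 had the widest gap, with 151, 209 and 154 in brown against 478, 465 and 513 in white (-1.51, limma adjusted p = 6.94e-06). Sox17 had a difference of -0.83 on its brighter probe set, which is of a type prone to cross-hybridisation, and of -0.20 on the other, which was not called (adjusted p = 0.466 over probe sets). Sox18 had 324 ± 18.6 against 451 ± 64.5 (-0.47). Erg, an ETS family factor that maintains endothelial genes, was called absent on all 6 arrays by both of its probe sets, with signals of the brighter from 46.9 to 63.0 in brown and from 83.4 to 99.7 in white, and was not tested.

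Among the VEGF and angiopoietin receptors of the blood endothelial list, Flt1 was called higher in brown, Tie1 higher in white, and Kdr and Tek were not called. Kdr, the main signalling receptor for VEGF-A, gave 936, 845 and 749 in brown against 803, 898 and 760.1 in white, and the tissues overlapped (0.04, 95% interval -0.19 to 0.26, limma adjusted p = 0.765). Flt1, which binds VEGF-A tightly and can act as a decoy, was higher in brown, at 326, 331 and 307 against 239, 259.6 and 244 (0.38, adjusted p = 0.00777). Of its other 3 probe sets, 1 was higher in brown (0.75) and 2 were not called (-0.05 and 0.21). Averaged over its 4 probe sets, Flt1 had a difference of 0.32 that was not called (adjusted p = 0.0708). Tek, the angiopoietin receptor Tie2, had 253 ± 15.8 against 300.2 ± 4.78 (-0.25, adjusted p = 0.0556), and passed the threshold without brown replicate 2 (-0.30, adjusted p = 0.0395). Its partner receptor Tie1 was higher in white (-0.49, adjusted p = 0.0415), but did not pass the threshold without brown replicate 1 (adjusted p = 0.133), brown replicate 3 (0.0847), white replicate 1 (0.0852), white replicate 2 (0.06) or white replicate 3 (0.131).

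Other blood endothelial genes that were not called were Emcn, Nos3, Egfl7 and Mmrn2. Emcn, a mucin of capillaries and veins, had 379 ± 27.3 against 391 ± 33.0, with a 95% interval of the difference from -0.28 to 0.19. Nos3, the endothelial nitric oxide synthase, had an interval from -0.39 to 0.04, and Egfl7, a secreted protein of vessel walls, from -0.10 to 0.30, with none of its 4 probe sets called. Mmrn2, a matrix protein of endothelium, was not called on its brightest probe set (-0.24, interval -0.81 to 0.34), which spread from 159 to 333 within brown. That probe set is of the type prone to cross-hybridisation. The other 3 probe sets of Mmrn2 were each higher in white (-0.87, -1.10 and -0.77).

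The lymphatic genes were higher in white where they were detected. Lyve1, a hyaluronan receptor of lymphatic endothelium that some tissue macrophages also carry, gave 56.5, 94.6 and 71.2 in brown against 319, 306 and 333 in white (-2.14, SE 0.18, limma adjusted p = 4.62e-06). Its second probe set was at least 10.3-fold higher in white. Flt4, the receptor for VEGF-C, gave 83.4, 92.7 and 83.9 in brown, all called absent, against 177, 207 and 218 in white, at least 2.31-fold higher, while its second probe set was not called (-0.51, adjusted p = 0.0651 over probe sets). Mmrn1, a multimerin of lymphatic endothelium and platelets, had 92.2 ± 11.1 against 177 ± 7.59 (-0.95). Prox1, the transcription factor that defines lymphatic endothelium, was called absent on all 6 arrays by all 3 of its probe sets, the brightest of which gave 7.65 to 30.9 in brown and 42.5 to 55.6 in white. In the macrophage list, 11 of 12 genes were higher in white (median -2.53), where 32.7% of all genes tested were. The summed signal of that list ran from 3093 to 3741 in brown and from 19478 to 20323 in white. Its part in the Lyve1 difference was not tested.

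The VEGF ligands split between the tissues. Vegfa gave 1250.0, 1188 and 1369 in brown against 845, 687 and 1010.4 in white (0.60, SE 0.13, limma adjusted p = 0.00238), and its second probe set was higher in brown by 1.12. All 3 brown arrays lay above all 3 white arrays. Vegfb, a ligand of Flt1 linked to fatty acid uptake, gave 1375, 1257 and 1748 in brown against 1241, 1233 and 1188 in white (0.24, adjusted p = 0.0766), and passed the threshold without brown replicate 2 (0.35, adjusted p = 0.014). Vegfc, the lymphatic growth factor, was dim in brown, at 48.3, 47.4 and 40.2 with 1 array called present, against 77.9, 83.7 and 89.7 in white (-0.89, adjusted p = 0.0029). Pgf, placental growth factor, was called absent on all 6 arrays and was not tested.

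The neuropilins and angiopoietins also differed among themselves. Nrp2, a co-receptor for VEGF-C and for class 3 semaphorins, was the member furthest towards brown, at 545, 597 and 521 against 236, 206 and 212 (1.35, SE 0.10, limma adjusted p = 1.83e-06). All 3 of its tested probe sets were higher in brown, by 0.83 to 2.10. It is listed here as a co-receptor, and the lymphatic genes above ran opposite to it. Nrp1, the co-receptor of Kdr for VEGF-A, was not called on its brightest probe set (-0.02, 95% interval -0.19 to 0.14), while 2 of its other 3 probe sets were higher in brown (0.49 and 0.50). Angpt1, the ligand that activates Tek, was higher in white, at 239, 247 and 286 against 394, 458 and 481 (-0.79). Angpt2, which can oppose it, was called absent on all 6 arrays, with signals of its brighter probe set from 5.77 to 26.9 in brown and from 52.3 to 69.1 in white.

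**Figure D2:**
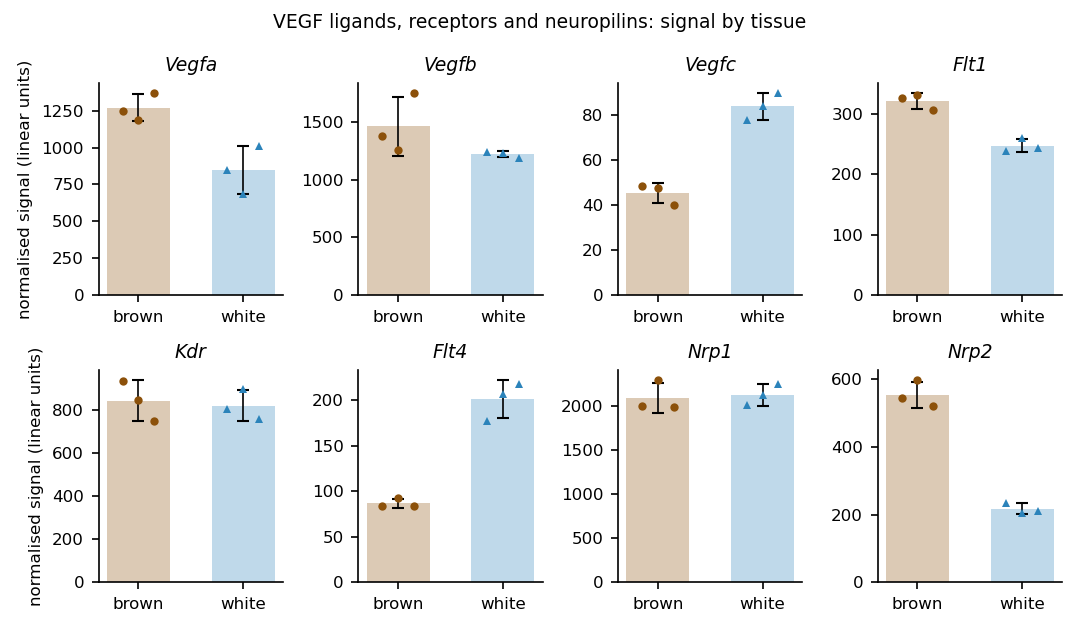
Bars are mean normalised signals in linear units, error bars are SD and points are single arrays (n = 3 per tissue), for the brightest probe set of each gene, on an axis of its own. Vegfa, Flt1 and Nrp2 were higher in brown, Vegfc and Flt4 in white, and the arrays overlapped for Kdr and Nrp1.

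The probe sets of a gene did not always give the same call. Of the 70 probe sets, 55 were tested, of which 26 were higher in white, 11 in brown and 18 were not called, where 29.9% of all 19819 tested probe sets were higher in white and 24.6% in brown. Of 14 members with more than 1 tested probe set, 6 were called the same way on all of them, 1 (Egfl7) was called on none and 7 were called on some only. In no member was 1 probe set higher in brown and another in white.

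**Figure D3:**
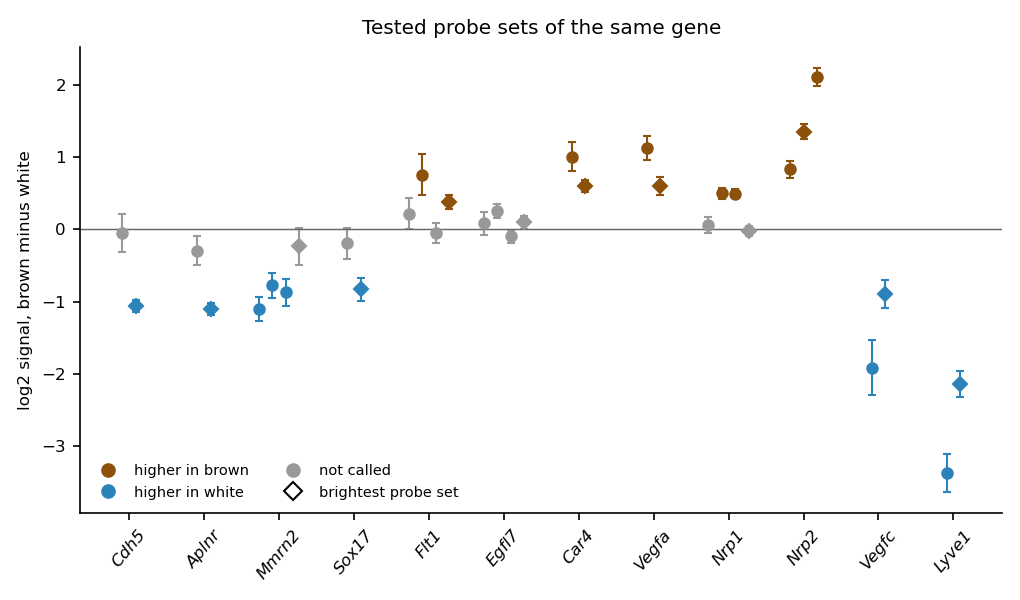
Points are log2 differences (brown minus white) with their SE for tested probe sets of 12 members, coloured by call, with diamonds for the probe set with the highest mean signal. The probe sets of Vegfa, Car4 and Nrp2 were all higher in brown and those of Lyve1 and Vegfc all higher in white, while Cdh5, Aplnr, Sox17, Mmrn2, Flt1 and Nrp1 had some that were not called.

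How far a member stood from 0 depended on the scaling of the arrays. With the signals as deposited, the median difference of all genes tested was -0.50, against -0.04 after quantile normalisation. Blood endothelial genes then counted 21 higher in white and 0 in brown (median -1.04), where 56.1% of all genes tested were called higher in white and 15% in brown under that scaling. Kdr had -0.33 and was called higher in white, Flt1 had -0.12 (limma adjusted p = 0.293), and Vegfa (0.28, adjusted p = 0.0855) and Car4 (0.19, adjusted p = 0.0675) were no longer called. Nrp2 was called higher in brown (0.88) there too. Measured against the median of the blood endothelial genes, Vegfa was higher by 1.09 after quantile normalisation and 1.31 as deposited. In that order, Flt1 had 0.87 and 0.91, Car4 1.09 and 1.22, Nrp2 1.84 and 1.92 and Kdr 0.53 and 0.70. A shift of a whole array cancels in this measure, so part of the likeness between scalings is built in. Flt1, Car4 and Kdr are themselves among the blood endothelial genes. With each array centred on the median of its tested probe sets, the blood endothelial counts were 14 for white and 3 for brown, and 4 ligands and co-receptors were higher in brown, with Vegfb (0.56) and Nrp1 (0.39) added to Vegfa and Nrp2. Under that scaling 27.1% of all genes tested were higher in white and 34.2% in brown.

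**Figure D4:**
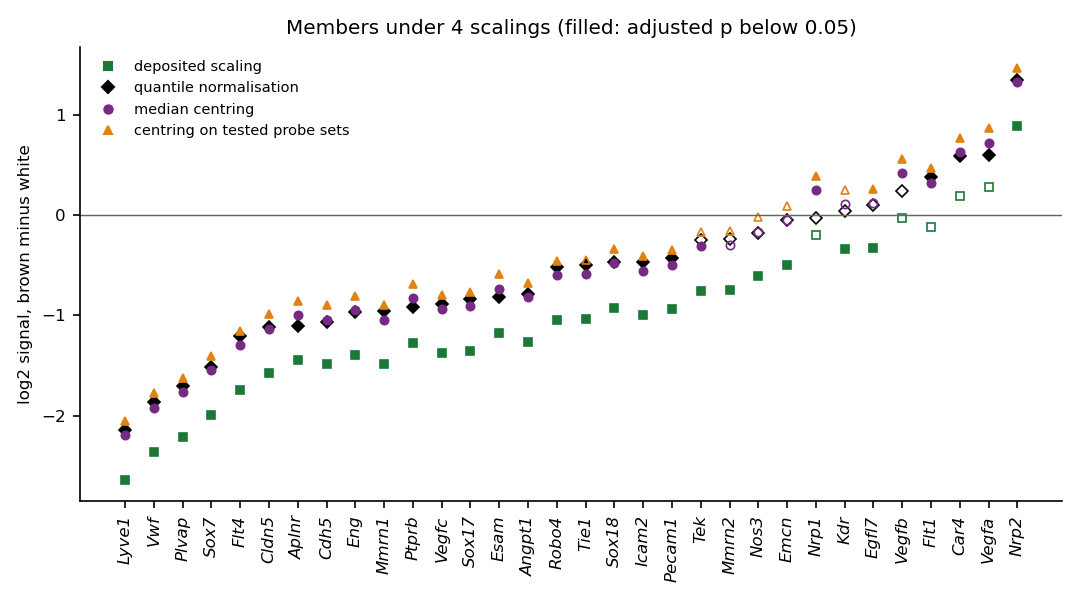
Log2 differences (brown minus white) of the 32 tested members under 4 scalings of the arrays, sorted by the quantile-normalised value, with filled symbols where the adjusted p was below 0.05. The deposited scaling places all members lower, so that Nrp2 is the only filled symbol above 0 there, and under every scaling shown Vwf, Plvap and Lyve1 lie lowest.

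Sequences upstream of the start site are shown for 6 members, chosen after their values were seen to hold examples of each call rather than the balance of the list. They are Eng and the lymphatic Flt4 (higher in white), Kdr (not called), and Flt1, Vegfa and Nrp2 (higher in brown). RefSeq promoter sequences (build GRCm38.p6) were used for 20 of the 36 members, taking the 250 bases before the most upstream start site, written 5' to 3'. Capitals mark the cores AGGAAG or CCGGAA on either strand, letters recognised by ETS factors such as Erg. The windows are chr2:32646345-32646594 (plus strand) for Eng, chr11:49609429-49609678 (plus strand) for Flt4, chr5:75978456-75978705 (minus strand) for Kdr, chr5:147726012-147726261 (minus strand) for Flt1, chr17:46032378-46032627 (minus strand) for Vegfa and chr1:62703067-62703316 (plus strand) for Nrp2.
Eng: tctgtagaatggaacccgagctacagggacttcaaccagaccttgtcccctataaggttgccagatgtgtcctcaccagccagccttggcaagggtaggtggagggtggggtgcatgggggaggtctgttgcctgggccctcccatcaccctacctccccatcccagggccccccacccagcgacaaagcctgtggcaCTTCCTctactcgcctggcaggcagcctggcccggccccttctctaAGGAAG
Flt4: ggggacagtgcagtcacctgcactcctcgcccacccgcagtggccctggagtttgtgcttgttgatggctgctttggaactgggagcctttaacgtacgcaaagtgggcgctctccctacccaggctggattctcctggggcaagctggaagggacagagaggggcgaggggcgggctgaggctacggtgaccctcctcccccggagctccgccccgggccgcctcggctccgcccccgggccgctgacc
Kdr: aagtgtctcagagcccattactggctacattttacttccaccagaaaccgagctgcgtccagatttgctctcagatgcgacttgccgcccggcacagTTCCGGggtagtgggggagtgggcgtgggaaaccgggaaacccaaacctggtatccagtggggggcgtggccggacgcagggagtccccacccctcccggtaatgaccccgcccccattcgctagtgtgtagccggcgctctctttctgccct
Flt1: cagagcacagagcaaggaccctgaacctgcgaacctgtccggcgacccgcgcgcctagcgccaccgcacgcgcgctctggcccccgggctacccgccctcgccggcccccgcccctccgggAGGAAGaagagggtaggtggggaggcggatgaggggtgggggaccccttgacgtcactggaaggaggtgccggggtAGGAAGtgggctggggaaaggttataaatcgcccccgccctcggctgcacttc
Vegfa: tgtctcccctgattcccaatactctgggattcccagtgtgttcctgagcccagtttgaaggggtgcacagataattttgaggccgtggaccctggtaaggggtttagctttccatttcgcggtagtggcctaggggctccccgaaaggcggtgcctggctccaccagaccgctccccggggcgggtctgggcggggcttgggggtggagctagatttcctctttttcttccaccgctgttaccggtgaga
Nrp2: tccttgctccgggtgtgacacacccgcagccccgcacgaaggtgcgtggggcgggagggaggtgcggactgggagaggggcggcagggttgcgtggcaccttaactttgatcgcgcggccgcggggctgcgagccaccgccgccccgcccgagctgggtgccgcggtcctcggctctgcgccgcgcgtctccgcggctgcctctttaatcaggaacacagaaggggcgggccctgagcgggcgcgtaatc
Eng and Flt1 held 2 of these cores each, Kdr held 1, and the windows of Flt4, Vegfa and Nrp2 held none. Over the 20 members, 9 windows (45.0%) held at least 1 core, where 38.0% of 27025 genes did. The letters ACGTG, a form of the core bound by hypoxia-inducible factors, were in none of the 20 windows and in 16.5% of all. The form GCGTG, which the Kdr and Nrp2 windows hold, was not counted, and bases further upstream were not searched. These matches describe the letters alone.

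Other vascular genes outside the list leaned the same way as its blood endothelial genes. Of 59 tested, 37 were higher in white, 5 in brown and 17 were not called, with a median of -0.61. Over all genes tested, 32.7% were higher in white and 28.2% in brown, with a median of -0.04. Genes absent in brown, such as Pdpn, Sema3c and Thbs2, met the detection rule through white, which favours a call towards white. Highest towards white were Pdpn, a glycoprotein of lymphatic endothelium that mesothelium and fibroblasts also carry (at least 9.10-fold), the semaphorin Sema3c (at least 8.95-fold), the basement membrane protein Nid1 (-3.16), the lymphatic growth factor Vegfd (69.5 ± 9.62 against 602 ± 28.9, -3.12), Cd34 (-2.27) and the angiogenesis inhibitor Thbs2 (at least 3.71-fold). The 5 genes higher in brown included Egln1 (1290.3 ± 59.1 against 459 ± 25.9, 1.49) and Egln3 (1.62), the oxygen-sensing hydroxylases that mark hypoxia-inducible factors for breakdown, and Hif1a itself (0.50). The others were Ackr3 (0.79), a chemokine scavenging receptor, and Apln (0.65), the ligand of the apelin receptor Aplnr, which was higher in white. As deposited, Apln had 0.16 and Hif1a 0.12, neither called. Other genes of the hypoxia response, Vhl (-0.74), Arnt (-0.46) and Adm (-1.67), were higher in white after quantile normalisation. Epas1, the hypoxia-inducible factor abundant in endothelium, had 2838 ± 143 against 2856 ± 54.0 and was not called, but it was higher in brown with median centring (0.38) and with centring on tested probe sets (0.52). Tspan12, a co-receptor of Fzd4, was not called (-0.26), but was higher in white as deposited (-0.68).

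Markers of other cell types moved with the tissues as well, and their part in the vascular differences was not tested. Their counts stand beside 32.7% of all genes tested higher in white and 28.2% in brown. Genes absent in a tissue met the detection rule through the other, which favours a call there. Msln and Slpi did so through white and Des through brown. Each of the 9 mesothelial genes had the higher signal in white (median -3.11), with summed signals of 306 to 329 in brown and 4104 to 4151 in white, and the difference was at least 12.5-fold for Msln and at least 37.0-fold for Slpi. Of 9 fibroblast genes, 8 were higher in white (median -1.87), led by Fn1 (-3.59) and Pdgfra (-2.52), with summed signals of 9563 to 10219 and 35541 to 36458. Macrophage genes were led by C1qc (-3.61) and Lyz2 (-3.19). Pericyte and smooth muscle genes were mixed, with 5 of 11 higher in white, 3 in brown and a median of -0.19, and Mcam (-2.63) and Des (at least 3.68-fold higher in brown) at the ends. Their summed signal ran from 6595 to 6941 in brown and from 8969 to 9458 in white. Of 6 platelet and erythroid genes tested, Pf4 was higher in white (-2.29), Gp1bb in brown (0.95) and 4 were not called. As deposited, Gp1bb had 0.47 and was not called. Of 10 skeletal muscle genes, 2 were tested, Casq1 (0.78, limma adjusted p = 0.049, but 0.24 and not called as deposited) and Acta1 (-2.51, adjusted p = 0.113), with summed signals of 348 to 879.8 in brown and 438 to 513 in white. Adipoq, a gene of all adipocytes, had a difference of -0.47 and Actb of -0.66, and as deposited -0.41 and -0.59. These became 0.17 and -0.01 when arrays were centred on their tested probe sets. Fabp4 (-0.03) and Pparg (0.11), also shared by both fats, were not called, but were called higher in brown with that centring (0.49 and 0.46). Lep, the hormone of white fat, had -5.08.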

How the data were processed

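Each deposited array file gives, per the file headers, the signal intensity of each probe set, which is linear by its values, with a present, marginal or absent call and its detection p-value. The sources used here do not name the software or scaling. The deposited series table of signal intensities was not used for results. Its columns named for brown (medians 64.3, 62.9 and 63.8) correlated best with white arrays and those named for white (56.7, 56.8 and 55.9) with brown arrays, so its direction is opposite, and its scale and centring are unknown. The array files were kept, because Ucp1 and Lep run there as known for these tissues. The direction of these genes is therefore not independent evidence.

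After 64 control probe sets were left out, the 1 signal of 0 was set to 0.1, and log2 signals were quantile-normalised. The 19819 probe sets with a present call on 3 or more of the 6 arrays entered limma 3.58.1 under R 4.3.3 (linear model, eBayes with trend, Benjamini-Hochberg, threshold 0.05). Each of 10264 genes was read from its brightest tested probe set, and p-values were adjusted over these genes, or over probe sets where so stated. Means ± SD are of linear signals, n = 3, differences of mean log2 signals, and a bound, also of mean log2 signals, sets the brighter tissue against the gene's own signal on each dimmer array or, if larger, that array's lowest signal with a present call. Names came from the platform annotation, where 34945 probe sets had 1 symbol, 932 several and 9160 none. The fit was tested on simulated data. Members, lists and tests were chosen with earlier results of these data known. Every member was named. Of the other lists the called genes that moved most were named, up to 6 each way for vascular genes and 2 for most other lists. Adipocyte genes were chosen by name. Further vascular genes, such as those of the hypoxia response, the basement membrane and the Notch pathway, were named outside this rule. Only 3 arrays per tissue limit the precision.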

Additional observations from a re-analysis of the deposited data

How the results depend on the processing

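Each value was recomputed under 17 alternatives, of which centring on tested probe sets was chosen after seeing the data. Of the 32 tested members, 18 kept direction and call under every alternative that could be computed for them, among them Cdh5, Vwf, Cldn5, Sox7, Nrp2, Angpt1 and, where still tested, Lyve1, Flt4 and Vegfc. Blood endothelial genes higher in brown numbered 2, but 0 as deposited, 0 after spike-in scaling and 1 with the mean over probe sets. Ligands and co-receptors higher in brown numbered 2, but 1 as deposited, 1 after spike-in scaling, 4 with median centring and 4 with centring on tested probe sets. Over all genes tested, 28.2% were higher in brown after quantile normalisation, 15% as deposited and 13.4% after spike-in scaling. The share was 27.8% with median centring, 34.2% with centring on tested probe sets and 28% with the mean over probe sets. Asking for present calls on all 6 arrays left 1 lymphatic gene and 1 ligand gene higher in white, since fewer were tested. Of 21 blood endothelial genes then tested, 13 were higher in white and 2 in brown, against 31.9% and 33.4% of all genes.

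The called gene Flt1 and 6 members that were not called turned direction under some alternatives. As deposited and after spike-in scaling, in that order, Kdr had -0.33 and -0.33, Egfl7 -0.33 and -0.33, Flt1 -0.12 and -0.12, and Vegfb -0.025 and -0.024. Nrp1 had 0.25 with median centring, 0.39 with centring on tested probe sets and 0.26 with the mean over its probe sets, and Emcn had 0.089 with centring on tested probe sets. The cause was not tested. Leaving out 1 array at a time gave -0.041 to 0.12 for Kdr, -0.091 to 0.017 for Nrp1, -0.12 to 0.0011 for Emcn and -0.52 to 0.0088 for Mmrn2. It gave 13 to 16 blood endothelial genes higher in white, where 29.1% to 32.2% of all genes tested were. Same-numbered brown and white arrays did not deviate together (correlations 0.02, -0.01 and -0.05 over tested probe sets). Arrays of unlike number had -0.05 to 0.07. Values this small from 3 arrays per tissue cannot show which samples, if any, shared a mouse. No label pairs them, so the numbers were not taken as pairs. With the replicate block, 14 blood endothelial genes were higher in white, where 31.8% of all genes tested were. Tie1 lost its call there (limma adjusted p = 0.0512), and no other member's call changed. Only 3 arrays per tissue and the dim signals of Erg, Prox1, Pgf and Angpt2 limit what could be tested.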

Other observations

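Within the wider vascular list, sets of genes with a shared role could be set side by side. These sets were put together after their values were seen and carry no test of their own. The basement membrane genes Col4a1 (2433 ± 39.9 in brown against 7129 ± 272 in white, SD, n = 3 each), Col4a2 (-1.20), Lama4 (-1.61), Hspg2 (-0.90) and Nid1 (-3.16) were all higher in white. These proteins line adipocytes as well as vessels.

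In the Notch pathway, which patterns arteries and sprouting capillaries, Notch1 (216 ± 59.1 against 555 ± 13.1, -1.40) and its ligand Jag1 (-1.40) were higher in white. Dll4, a Notch ligand of arterial endothelium (-0.30, limma adjusted p = 0.184), the endothelial receptor Notch4 (-0.25, adjusted p = 0.227) and Efnb2, an arterial marker (-0.22, adjusted p = 0.556), were not called, but were called higher in white as deposited (-0.85, -0.80 and -0.74). Hey2, a Notch target, was not called (0.67, adjusted p = 0.224) and Hey1 was called absent on all 6 arrays.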
